A study of Mus musculus with 24 samples.

Results

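The comparison described here set 3 m6A IP libraries against 3 Input libraries of irradiated tumours, 6 of the 24 libraries of the series, and the libraries were chosen by their level of Lyz2 and not by matching labels. CD11b+ myeloid cells had been sorted from MC38 tumours, a colon carcinoma line grown in mice of the C57BL/6J background. WT mice carried floxed Ythdf2 without Cre, and Ythdf2 cKO mice carried floxed Ythdf2 with Cre from the Lyz locus, so that deletion was limited to cells that use this locus. Tumours were left untreated (Ctrl) or received 20 Gy once (IR) and were taken 3 days later. Each combination of genotype, treatment and library type had 3 replicates. The study's methods state that the cells of a replicate came from 5 pooled mice and call the replicates technical, so that p-values measure the spread between libraries. The IP libraries used here were labelled Ythdf2 cKO IR, and the Inputs were labelled WT IR. A further pair of pairings served for comparison, WT Ctrl IP over WT Ctrl Input, and the remaining irradiated libraries, which were labelled WT IR in the IP and Ythdf2 cKO IR in the Input and had low Lyz2.

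N6-methyladenosine (m6A) is a modification of adenosines within messenger RNA. It is placed by a writer complex around METTL3 and METTL14, removed by the erasers FTO and ALKBH5, and bound by readers such as YTHDF2, which directs bound transcripts to decay. In MeRIP-seq an antibody against m6A captures RNA fragments (IP), and unselected RNA is sequenced beside it (Input). A gene is called enriched here when its level is higher in the IP than in the Input and depleted when it is lower. A ratio of IP over Input compares RNA of the same cells only where both libraries come from the same kind of sample.

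Labels and Lyz2 disagreed in the irradiated IP libraries. Lyz2 encodes lysozyme of macrophages and neutrophils, and the Cre allele occupies its locus. On the scale of all 24 libraries, as CPM (counts scaled to the size of the library), Lyz2 stood at 23140.5, 21541 and 22265 CPM in the 3 WT IR Inputs and at 19517, 19774 and 19808 CPM in the 3 IP libraries labelled Ythdf2 cKO IR. The IP libraries labelled WT IR were at 88.5 to 91.1 CPM, and the Inputs labelled Ythdf2 cKO IR at 432 to 446 CPM. In the Ctrl libraries Lyz2 was high in both library types of WT and low in both of Ythdf2 cKO. These values selected the pairing and carry no test.

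Genes other than Lyz2 that separated the genotypes in the Ctrl libraries gave a measure that the choice had not used. By a rule of at least 4-fold in both Ctrl library types, 2 genes qualified, Rab4a and Hist1h4m. In the irradiated Inputs both differed between the labelled genotypes in the direction seen in Ctrl, and in the irradiated IP libraries both differed in the opposite direction (edgeR, adjusted p under 0.05). At a threshold of 2-fold, 12 genes qualified. In the Inputs 9 of them were called in the Ctrl direction and 0 in the opposite one, in a contrast that called 45.0% of all genes. In the IP libraries 0 were called in the Ctrl direction and 10 in the opposite one, with 35.8% of all genes called. Wdfy1, which encodes an endosomal protein that takes part in Toll-like receptor signalling, is an example. The Inputs labelled WT Ctrl, cKO Ctrl, WT IR and cKO IR had means of 28.1, 6.14, 29.9 and 5.1 CPM, and the IP libraries had means of 13.0, 3.45, 3.54 and 15.3 CPM in the same order. Rab4a and Hist1h4m were close to the limit of detection, with 20 and 0 counts in the 3 IP libraries of the pairing. Of the 12 genes only Wdfy1 and Mmp2 exceeded a mean of 10 CPM in any group, so that these counts rest largely on low genes.

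**Figure D1:**
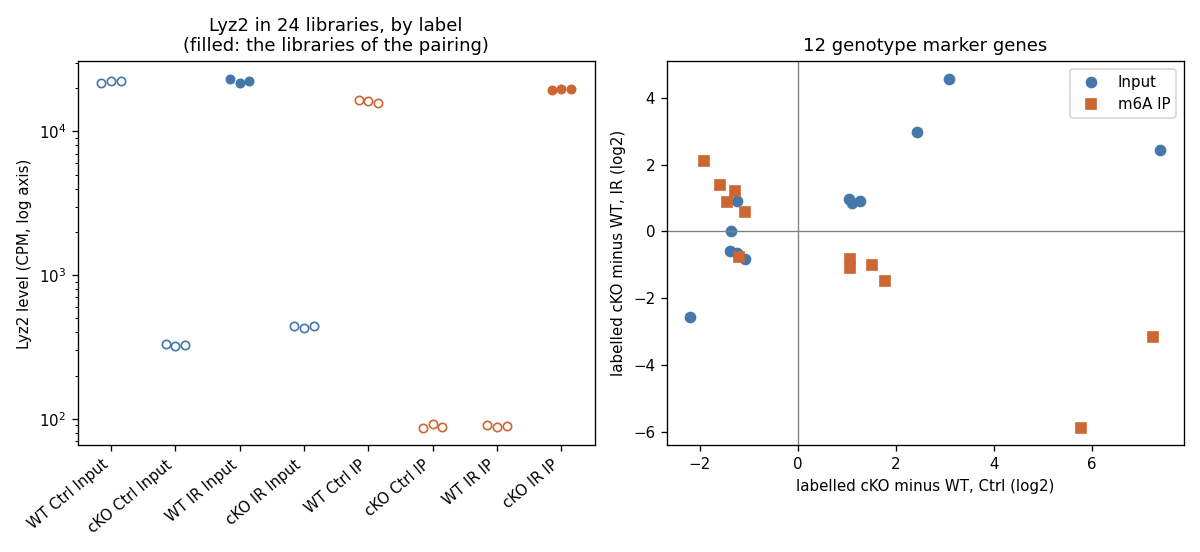
Left, Lyz2 level in CPM on a log axis in each of the 24 libraries, grouped by label, with the 6 libraries of the pairing filled. Right, log2 difference between the labelled genotypes of 12 marker genes in IR against the same difference in Ctrl, with Inputs as circles and m6A IP libraries as squares; 11 of the 12 squares lie where the sign is opposite.

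Lyz2 itself had a ratio of IP over Input of -0.20 on the log2 scale in this pairing. Under the pairing by label the ratio was 5.48 in libraries labelled Ythdf2 cKO IR and -7.96 in those labelled WT IR. The choice by Lyz2 fixed a ratio near 0 here and large ratios by label in advance. The pairings by label also share libraries with the pairing by Lyz2, and the values are set side by side only.

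The Inputs held 66.0M to 69.8M gene counts and the IP libraries 77.3M to 86.4M. Replicates of a group had Pearson r of at least 0.9961 across genes. The common biological coefficient of variation was 6.69%, so that small ratios passed the test. The summed level of 10 defining myeloid markers was 26031 to 27402 CPM in the Inputs and 21466 to 21694 CPM in the IP libraries. Most of it was Lyz2, by which the libraries were chosen, so that the sum gives no separate support. Of the 10 markers 2 were enriched and 8, Lyz2 among them, were lower in the IP. The shares over all genes tested were 39.1% enriched and 38.7% depleted. Itgam had means of 437 CPM in the Inputs and 504 CPM in the IP libraries, and Csf1r 1709 and 441 CPM. Erythroid markers differed between the library types, with a summed level of 29.7 to 32.4 CPM over 7 genes in the Inputs and 0.0236 to 0.167 CPM in the IP libraries, where 4 of the 7 were at 0. Hbb-bs, a globin, had 2687 counts in the Inputs and 0 in the IP libraries, at least 1252-fold lower against a floor of 3 counts over the group. This level was that of the WT IR Inputs and not of Inputs in general, since Hbb-bs had a mean of 14.5 CPM there, 0.00481 CPM in the WT Ctrl Inputs and 0 in the Inputs labelled Ythdf2 cKO IR. Epithelial or tumour cell markers summed to 7.74 to 8.61 CPM in the Inputs and 80.8 to 81.1 CPM in the IP libraries, where Cdh1 (E-cadherin, which myeloid cells can also express) made up nearly all of it and 4 of 6 were at 0. T cell markers summed to at most 3.17 CPM, with Cd3e, Cd3g and Cd8b1 at 0 in all 6 libraries, and fibroblast markers to at most 2.09 CPM.

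The sequences below show a short motif related to the m6A consensus, nearest to the summit of the peak of highest fold in genes that the results turn on. GGACG, the form marked in Plet1 and Metrnl, is not a form of the m6A consensus, which does not end in G. They were read from the genome of the build of the peak lists (GRCm38), on the strand of the gene, and the capitals mark the motif GGACN, or else the motif AGACT. The peaks were found on the gene's strand in all 3 IP libraries labelled Ythdf2 cKO IR. The first 5 are genes of high ratio, and then follow Lyz2, Ythdf2 and genes named as YTHDF2 targets by the study. Car4, at chr11:84964054-84964080 on the plus strand, lies in an intron, and Plet1, at chr9:50499139-50499165 on the plus strand, in coding sequence. Ffar2, at chr7:30819039-30819065 on the minus strand, and Ccn3, at chr15:54753295-54753321 on the plus strand, lie in 3′ UTRs, and Ccl17, at chr8:94811147-94811173 on the plus strand, in an intron. Lyz2 (chr10:117282206-117282232, minus), Ythdf2 (chr4:132204402-132204428, minus), Metrnl (chr11:121715745-121715771, plus) and Smpdl3b (chr4:132746645-132746671, minus) lie in coding sequence, and Tnfaip8l2 (chr3:95139661-95139687, minus) in the 3′ UTR.
Car4: ggccggagtaaGGACTctgcccactct
Plet1: gcagtgaaggaGGACGacagcccagtg
Ffar2: cagagctcctgAGACTtggtaaaagat
Ccn3: aaattaaacagGGACTctttcatagtt
Ccl17: cctgactctcaGGACAcctgcttccta
Lyz2: tcctgactctgGGACTcctcctgcttt
Ythdf2: aaatctgctgtGGACTacaacacatgt
Metrnl: ggcttcattgaGGACGtcacacatgta
Smpdl3b: gacctgcatctGGACCccaactacacc
Tnfaip8l2: cccgaggaaggGGACActaaaggccac

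Such a match is common. Of the 9056 consensus peaks 8807 were counted for this share. GGACN or AGACT lay within 100 bases of the summit in 6037 of them (68.5%), with GGACG counted, so that this is not a share of consensus sites. Flanking windows were searched for GGACT alone, so that this share has no background beside it. GGACT on the strand of the peak was found within 50 bases of the summit in 12.1% of peaks and in 10.03% of windows of the same length 300 bases away. In 3′ UTRs the shares were 15.8% and 10.8%, in coding sequence 11.1% and 9.6%, and in introns 9.0% and 9.43%.

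Of the 54446 gene identifiers, 15654 had at least 10 counts in at least 3 of the 6 libraries and were tested. IP over Input was called for 12173 genes, or 77.8% of those tested (edgeR quasi-likelihood test, Benjamini-Hochberg adjusted p under 0.05). Of these, 6119 were enriched (39.1%) and 6054 depleted (38.7%). At least 2-fold enrichment was seen for 3121 genes (19.9%) and at least 2-fold depletion for 3084 (19.7%). The median ratio over all genes was 0.01 on the log2 scale, with its 0.05 and 0.95 quantiles at -2.71 and 2.43. With library totals alone in place of TMM the median was 0.24, so that the sign of small ratios depended on the scaling, and the calls became 7317 enriched and 4953 depleted.

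**Figure D2:**
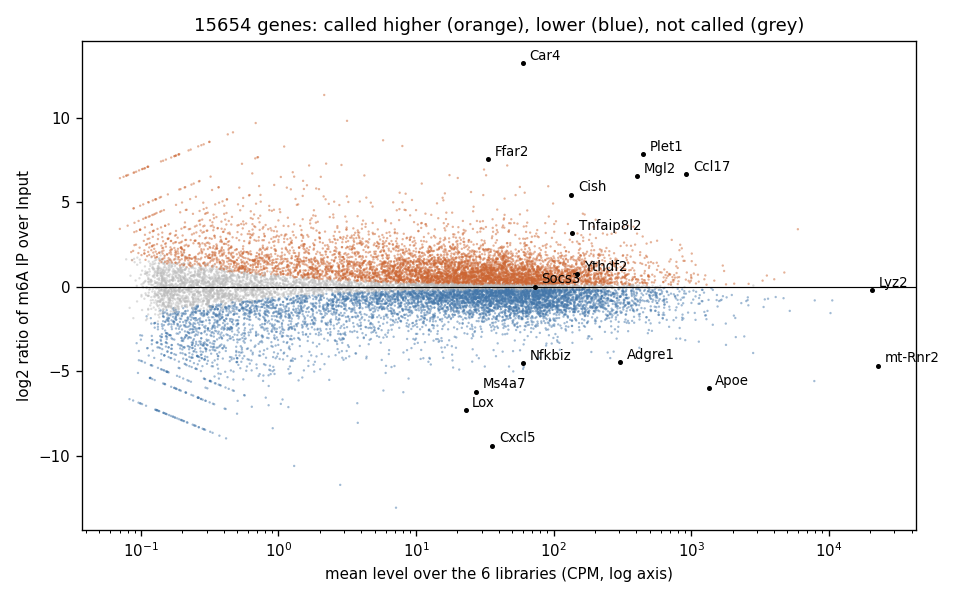
Log2 ratio of m6A IP over Input for each of 15654 genes against its mean level in CPM over the 6 libraries, on a log axis. Orange and blue points are genes called enriched and depleted, and Car4 at 13.24 and Cxcl5 at -9.41 are the most extreme of the protein-coding genes with a mean of at least 10 CPM and no overlap between library types.

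The 10 protein-coding genes with the largest ratios, among those with a mean of at least 10 CPM and no overlap between library types, had mean Input levels from 0.0107 CPM in Car4 to 18.1 CPM in Ccl17. Car4, which encodes a carbonic anhydrase anchored to the membrane, had 0.0165, 0 and 0.0155 CPM in the Inputs and 119.9, 121 and 118 CPM in the IP libraries. Its 2 Input counts stood against 31360 IP counts, a ratio of 11217 after scaling (95% interval of the counts 3105 to 92629). Plet1, a surface protein of epithelial progenitors and of some dendritic cells, had 3.4, 3.67 and 4.41 CPM in the Inputs and 879.6, 889 and 883 CPM in the IP libraries, a log2 ratio of 7.85 (SE 0.07, edgeR adjusted p 5.5e-16). Every IP library lay above every Input for both genes, and the rule for naming them required that library types did not overlap.

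Ffar2, a receptor for short-chain fatty acids, had 0.346, 0.208 and 0.513 CPM in the Inputs and 65.6, 67.0 and 67.9 CPM in the IP libraries (log2 ratio 7.54, SE 0.13). Ccl17, a chemokine made by dendritic cells and alternatively activated macrophages, had 18.7, 17.8 and 17.9 CPM against 1817, 1847 and 1817 CPM (6.65, SE 0.04). Mgl2, a lectin of the same cells, had 8.39, 8.66 and 9.01 CPM against 775, 797 and 819 CPM (6.52, SE 0.05). The other genes of highest ratio were Ccn3 (7.17), Rnase2a (6.93), the IL-33 receptor Il1rl1 (6.60), the lectin Asgr2 (6.59) and Ccdc80 (6.56). All 10 had at least 1 consensus peak, beside 3376 genes with a peak and 9300 without among tested protein-coding genes. Peaks rest on the same IP reads, so that high IP levels favoured a peak in advance. The highest mean fold of a peak, as the authors' caller gave it, ran from 12.56 in Ccl17 to 54.58 in Plet1.

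The 10 genes with the smallest ratios were chosen in the same way. Cxcl5, a chemokine that attracts neutrophils, had 59.6, 77.4 and 76.7 CPM in the Inputs and 0.128, 0.0825 and 0.0954 CPM in the IP libraries (log2 ratio -9.41, SE 0.17, edgeR adjusted p 9.2e-14). Lox, the lysyl oxidase of collagen, had 41.8, 49.3 and 45.6 CPM against 0.225, 0.424 and 0.215 CPM (-7.31, SE 0.15). Apoe, the apolipoprotein of macrophages, had 2917, 2426 and 2557 CPM against 43.9, 37.0 and 42.0 CPM (-6.01, SE 0.09). The macrophage gene Ms4a7 was at -6.21, and Clec4a1, Ednrb, Adam19, Cxcl1, Ms4a6c and Il12b lay between -5.01 and -4.72. None of these 10 had a consensus peak, which their low IP levels relative to the Inputs favoured in advance. In each the 3 IP libraries lay below the 3 Inputs, as the rule for naming them required.

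**Figure D3:**
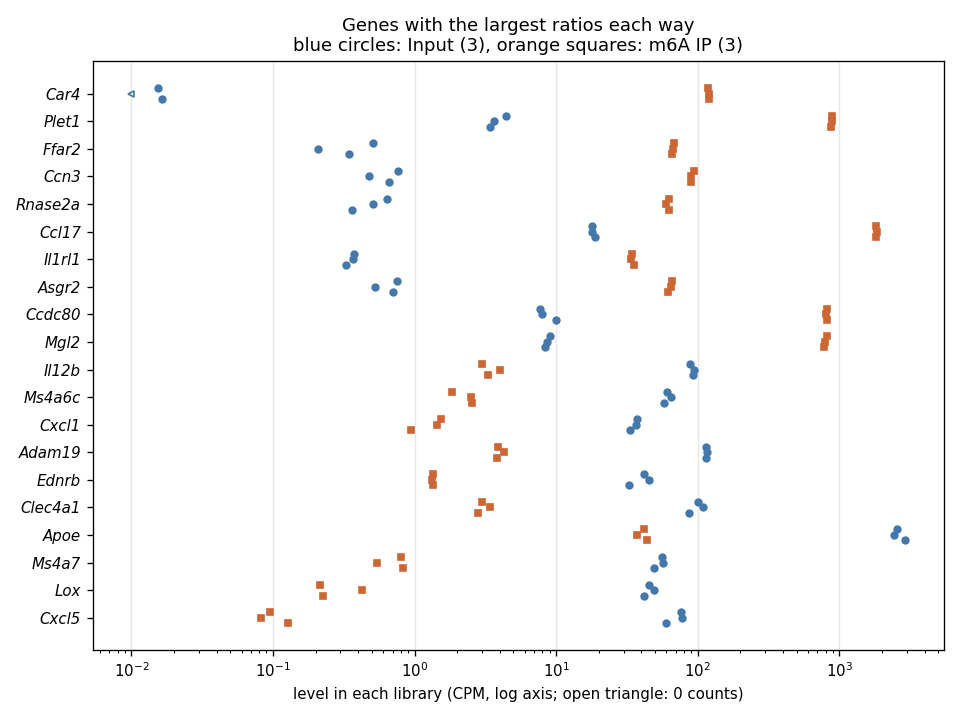
Level in CPM, on a log axis, of the 10 genes of highest and the 10 of lowest ratio in each of the 3 Inputs (circles) and 3 IP libraries (squares), with an open triangle for 0 counts. No gene has overlapping library types, which the rule for naming them required.

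Peaks and ratios rest on the same IP reads and are not independent measures. Of 3376 tested protein-coding genes with a consensus peak 86.9% were enriched and 6.8% depleted, with a median ratio of 0.96, and of 9300 without a peak 25.6% were enriched and 52.9% depleted, with a median of -0.33. The share enriched was 79.1% with 1 peak and 96.8% with 5 or more. The IP libraries held 14041, 13736 and 13470 peaks, of which 9056 were consensus peaks in 3601 genes. Their summits lay in coding sequence in 55.0%, in 3′ UTRs in 16.4%, in introns in 14.5% and in 5′ UTRs in 2.9%, and 15.7% lay within 200 bases of a stop codon. By the place of the highest peak, median ratios were 0.93 for coding sequence, 0.91 for 3′ UTRs and 1.35 for 5′ UTRs. Lyz2 had 4 peaks on its own strand, of mean fold 1.8 to 6.56, and 4 on the opposite strand, of mean fold 9.65 to 42.8, where no gene is annotated.

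The architecture of a transcript was compared with its ratio, across genes, which are not independent replicates. Genes with few exon junctions per length were more often enriched. In the 20% of genes with the fewest exon junctions per kb (at most 1.26) 53.6% were enriched and 28.1% depleted, and in the 20% with the most (at least 5.21) 31.0% were enriched and 49.7% depleted. The Spearman rho was -0.17 over 12676 protein-coding genes. Long transcripts were more often depleted, with 55.5% in the longest 20% by exon length and 31.0% in the shortest. Of the 20% of genes with the most GGACT per kb 47.5% were enriched, and of the 20% with the fewest 40.4%. By type of gene, 203 of 443 lincRNAs were enriched and 83 depleted (median 0.80), and 332 of 449 loci of the annotation's provisional type TEC were depleted (median -3.09). The shares over all genes tested were 39.1% enriched and 38.7% depleted. The most abundant genes not annotated as protein-coding were mostly low in the IP, in libraries made from poly(A)-selected RNA. The mitochondrial ribosomal RNAs mt-Rnr2 and mt-Rnr1 were at -4.67 and -5.58, Gm23935 at -2.94 and Malat1 at -1.70. Clec7a, a polymorphic pseudogene in the annotation, was enriched at 1.51.

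Among genes of the m6A pathway the writers were mostly enriched, and readers and erasers were divided, beside 39.1% enriched and 38.7% depleted over all genes tested. Of 9 writer genes 7 were enriched and 1 depleted (median 0.37), from Virma at 1.19 (SE 0.04) and Wtap at 1.05 (SE 0.05) to the catalytic subunit Mettl3 at -0.23 (SE 0.06), whose ratio was 0.00 with library totals alone. Among the erasers Fto was at 0.40 (SE 0.05) and Alkbh5 at -1.15 (SE 0.05). Of 10 readers 5 were enriched and 4 depleted (median 0.34). Ythdf2 had 111, 110.1 and 113 CPM in the Inputs and 184, 191 and 184 CPM in the IP libraries (0.74, SE 0.04, edgeR adjusted p 1.8e-09), Ythdf3 was at 0.72 and Igf2bp2 at -1.44. With the labels as given, Ythdf2 was at -0.33 in the libraries labelled Ythdf2 cKO IR and at 0.48 in those labelled WT IR.

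Of 4 genes of the list of targets, 3 were enriched and 0 depleted (median 1.40, beside 0.01 over all genes). The shares over all genes tested were 39.1% enriched and 38.7% depleted. The study chose these genes on this series, so that the list is not independent evidence. Tnfaip8l2, a brake on immune receptor signalling, had 30.3, 25.3 and 26.8 CPM in the Inputs and 238, 249.9 and 250.1 CPM in the IP libraries (3.16, SE 0.06). Smpdl3b, a phosphodiesterase of the membrane, was at 1.56 (SE 0.05) and the secreted Metrnl at 1.23 (SE 0.05). Socs3, an inhibitor of cytokine signalling, had 79.2, 66.2 and 73.1 CPM against 73.9, 72.3 and 72.4 CPM, with a ratio of -0.00 (SE 0.06, edgeR adjusted p 1.0), and its library types overlapped. Among the 8 SOCS genes 5 were enriched and 1 depleted (median 0.82). Cish had 6.23, 5.91 and 5.81 CPM in the Inputs and 264, 262 and 261 CPM in the IP libraries (5.45, SE 0.05), Socs6 was at 3.05 and Socs7 at -0.75.

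Genes of the NF-kB pathway were mostly depleted, beside 38.7% depleted and 39.1% enriched over all genes tested. A list of 16 housekeeping control genes was too, with 10 depleted and 4 enriched (median -0.62). NF-kB is a family of transcription factors held in the cytoplasm by inhibitors and released by IKK kinases. Of 17 inhibitor genes 5 were enriched and 12 depleted (median -0.52), and with library totals alone 9 stayed depleted. Nfkbiz had 111, 119.9 and 114 CPM in the Inputs and 4.73, 5.43 and 4.64 CPM in the IP libraries (-4.54, SE 0.07), and the RNase gene Zc3h12a was at -2.18, Nfkbia at -1.01, the deubiquitinase gene Otulin at 0.97 and Tnip3 at 0.75. Of 11 subunits and kinases 0 were enriched and 11 depleted (median -1.02), among them Rel at -2.70 (SE 0.06) and Relb at -2.39 (SE 0.05). Ikbke at -0.11 was the nearest to 0 and was at 0.13 with library totals alone.

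Lists of cell type genes moved in different directions, beside 39.1% enriched and 38.7% depleted over all genes tested. Of 19 tumour macrophage genes 11 were depleted and 6 enriched (median -0.84), and their summed level was 12802 to 13333 CPM in the Inputs and 5589.5 to 5673 CPM in the IP libraries. Adgre1, which encodes F4/80, was at -4.47 and Csf1r at -1.96, whereas Arg1 was at 4.04 and Spp1 at 1.53. Of 13 inflammatory monocyte genes 9 were enriched and 3 depleted (median 1.29), with summed levels of 3242 to 3546 and 6409 to 6546 CPM. The Fc receptor Fcgr1 was at 4.27, Klf4 at 3.76 and Irf8 at -1.65. A list of 16 dendritic cell genes, put together after the values were seen, held 12 enriched and 4 depleted genes (median 1.86), from Flt3 at -3.63 to Cd209a with 0 Input and 1134 IP counts, at least 270.4-fold higher. These directions were not particular to the pairing. In WT Ctrl the medians of the macrophage, monocyte and dendritic cell lists were -0.73, 0.74 and 2.18. In the low-Lyz2 irradiated pairing they were -1.55, 0.71 and 1.83. In bulk samples fewer cells of a type and less RNA per cell cannot be told apart. Here neither can be told apart from capture by the antibody.

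Receptors and ligands were divided, as were all genes tested, with 39.1% enriched and 38.7% depleted. Of 21 Toll-like receptors and adaptors 10 were enriched and 8 depleted (median 0.10), with Tlr4 at 3.08, Tlr2 at 1.46 and Tlr1 at -2.49. Of 10 chemokine receptors 4 were enriched and 6 depleted (median -0.63), from Ccr1 at 3.55 and Ccr2 at 3.14 to Ccr3 at -3.09 and Cxcr3 at -3.39. Of 19 chemokine ligands 9 were enriched and 10 depleted (median -0.77), with Ccl17 at 6.65 and Ccl5 at -3.61. Of 28 immediate early genes 18 were enriched and 7 depleted (median 0.77), led by Klf4 and by Egr1 at 3.51 (SE 0.08). Zinc finger genes named Zfp were enriched in 224 and depleted in 40 of 323 (median 0.74).

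Lists of housekeeping functions differed among themselves, beside 39.1% enriched and 38.7% depleted over all genes tested. Of 84 cytosolic ribosomal protein genes 66 were depleted and 9 enriched (median -0.78), with Rpl10 at -1.98 and the low muscle paralog Rpl3l at 2.43. All 13 protein-coding genes of the mitochondrial genome were depleted (median -2.37), from mt-Nd6 at -4.20 to mt-Nd2 at -0.99. Of 24 deadenylation and decay genes 20 were depleted and 3 enriched (median -0.52), and 14 were depleted with library totals alone. The 80 nuclear-encoded genes of the respiratory chain did otherwise, with 43 enriched and 24 depleted (median 0.18). Proteasome subunits were divided, 16 enriched and 15 depleted of 38 (median 0.00), and of 18 glycolysis genes 5 were enriched and 9 depleted (median -0.06). Interferon-stimulated genes were divided, 9 enriched and 9 depleted of 25 (median -0.06, and 0.17 with library totals alone).

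**Figure D4:**
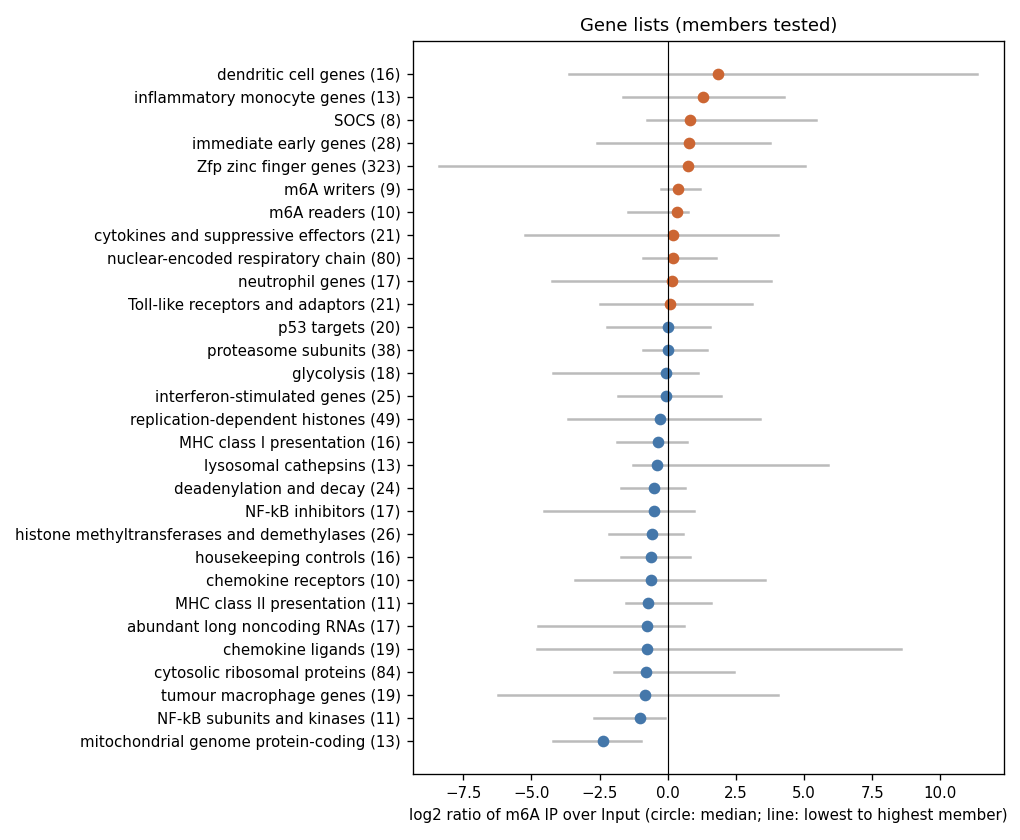
Log2 ratio of m6A IP over Input by gene list, with the number of members tested in brackets, the median as a circle and a line from the lowest to the highest member. Medians run from -2.37 for genes of the mitochondrial genome to 1.86 for dendritic cell genes, a list put together after the values were seen.

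The ratios were then set against those of WT Ctrl, which share no library with the pairing. Across 17373 genes in the fit of all 24 libraries Pearson's r against WT Ctrl was 0.87 and Spearman's rho 0.89, and they were 0.81 and 0.83 against the low-Lyz2 irradiated pairing. Points share library type and gene composition, and no p is given. Plet1 was at 8.48 in WT Ctrl and 7.68 in the low-Lyz2 pairing, and Apoe at -6.20 and -6.33.

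The difference from WT Ctrl was tested for each gene, and 2731 ratios were higher (15.7%) and 2208 lower (12.7%) of 17373. Genes of neutrophils were among those with the largest positive differences. Of 17 neutrophil genes 15 were higher and 0 lower, with a median difference of 1.99 on the log2 scale. Against the low-Lyz2 irradiated pairing 4 of the 17 were higher and 10 lower (median difference -0.26), beside 23.1% and 21.8% of all genes. The median ratio of the list was 0.15 in the pairing, -1.65 in WT Ctrl and 1.02 in the low-Lyz2 pairing. Ltf, the lactoferrin of neutrophil granules, had a mean of 824 CPM in the WT Ctrl Inputs and 74.6 in the WT Ctrl IP libraries, and 47.4 CPM in the WT IR Inputs and 47.6 in the IP libraries of the pairing. Its difference was 3.47 (SE 0.06). Ngp, a further granule gene, went from 759 to 39.5 CPM in the Inputs and from 78.7 to 44.4 CPM in the IP libraries (difference 3.44, SE 0.06). For both genes the gap between Ctrl and IR was wider in the Inputs than in the IP libraries. Ffar2 (3.18), the neutrophil surface gene Cd177 (2.39), Wfdc21 (2.39) and Padi4, which modifies histones in neutrophils (2.36), followed. Mpo, the myeloperoxidase of granules, had 6 Input counts in the pairing and its fitted difference of 7.46 rests on them. The neutrophil markers summed to 812 to 854 CPM in the Inputs of the pairing, and their part in the result was not tested.

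**Figure D5:**
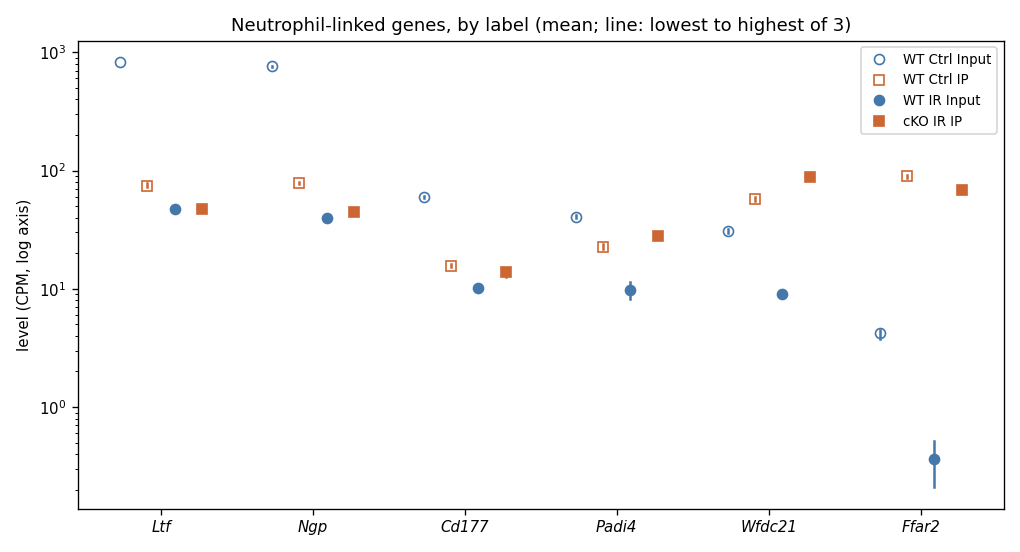
Mean level in CPM on a log axis, with a line from the lowest to the highest of 3 libraries, of 6 genes whose ratio was higher than in WT Ctrl, in WT Ctrl Input and IP (open) and in WT IR Input and the IP labelled Ythdf2 cKO IR (filled). Ltf stands at 824 and 47.4 CPM in the Inputs and at 74.6 and 47.6 CPM in the IP libraries.

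Among protein-coding genes with a mean of at least 10 CPM and no overlap between the pairings, the lower ratios were smaller in size. Ms4a6c differed by -1.44 (SE 0.11), Ifitm1 by -1.29 (SE 0.14) and B3galt2 by -1.25 (SE 0.15). Ribosomal protein genes moved together, with 76 of 84 lower and 0 higher (median -0.33), and of 80 respiratory chain genes 49 were lower and 0 higher (median -0.20). Of all genes 12.7% were lower and 15.7% higher. Macrophage genes were higher in 13 of 19 and lower in 3. Of the lists of the m6A pathway, 4 of 9 writers were lower and 1 higher, and Ythdf2 differed by -0.24 (SE 0.05).

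The difference from the low-Lyz2 irradiated pairing was larger in number, with 4014 ratios higher (23.1%) and 3782 lower (21.8%). Interferon-stimulated genes were higher in 21 of 25 and lower in 0 (median 0.93), and Rtp4 differed by 2.23 (SE 0.16), Ifi27l2a by 2.16 (SE 0.13) and Slfn1 by 2.03 (SE 0.11). Ifi27l2a had a mean Input level of 6.46 CPM in the pairing and 27.5 CPM in the low-Lyz2 pairing, with IP levels of 8.16 and 7.78 CPM. For Ifi27l2a the Inputs thus differed where the IP libraries did not separate. The IP libraries of the pairing and of the low-Lyz2 pairing did separate for Rtp4, at 6.78 to 7.36 and 10.5 to 12.4 CPM. They also did for Slfn1, at 103 to 109.5 and 85.7 to 90.2 CPM. Saa3, an acute phase gene, resembled Ifi27l2a, with Inputs at 164 and 742 CPM and IP libraries at 16.1 and 14.3 CPM (difference 2.35, SE 0.07). Chemokine ligands were higher in 17 of 19 and lower in 0 (median 0.83), and ribosomal protein genes higher in 78 of 84 and lower in 1 (median 0.64). Mitochondrial genes were lower in 12 of 13 (median -1.79), and mt-Co1 differed by -2.18 (SE 0.09). Ythdf2 was higher by 1.36 (SE 0.05). It stood at 113 CPM in the WT IR Inputs and 239 CPM in the Inputs labelled Ythdf2 cKO IR. The IP libraries labelled Ythdf2 cKO IR and WT IR were at 191 and 158 CPM. The Inputs labelled as knockout thus held more RNA of the targeted gene, with the cause not tested. Car4 differed by 3.67 (SE 0.63), with few counts in the Inputs of the pairing.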

How the data were processed

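Per the study's methods, the authors used Trimmomatic 0.39 for trimming, HISAT for strand-specific alignment to mm10 (GRCm38), and HTSeq with a GENCODE annotation for counting. The deposited values are whole-number counts for each gene and library, not normalized. The authors called peaks per IP library and strand with MACS2, and the deposited lists give a fold (a ratio at the summit) and a −log10 q-value; which Input served as control was not given in the sources used here. Groups came from the labels. Of 54446 identifiers 54409 matched GENCODE vM21.

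IP over Input was tested with the quasi-likelihood test of edgeR 4.0.16 (R 4.3.3) on the counts, with TMM normalization and genes of at least 10 counts in at least 3 libraries, over the 6 libraries of the pairing. Differences from other pairings came from 1 fit of all 24 libraries. Calls used a Benjamini-Hochberg adjusted p under 0.05. CPM values of the 6 libraries use the TMM factors of the 6, and values set against other groups those of the 24. Intervals and floors (3 counts) cover counting error only. The scripts were tested on simulated data. Consensus peaks were in all 3 libraries on the same strand.

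Members and lists were chosen with earlier results of these data known. Named were the 10 protein-coding genes of highest and lowest ratio (mean CPM at least 10, no overlap between library types), 8 each way for both differences, the m6A, target, NF-kB inhibitor and SOCS lists, and the 2 highest and 2 lowest of other lists. For a difference, no overlap was read, after values were seen, as no overlap between the 9 IP-to-Input ratios of each pairing, with the mean taken over its 12 libraries. Genes named outside this rule were chosen after their values were seen. Some genes are not reported here and were left out of the lists and named genes, but not of the fits. DESeq2 1.42.0, other scalings, filters and subsets of libraries were alternatives.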

Additional observations from a re-analysis of the deposited data

Results flagged for a closer look

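Ratios of IP over Input that differed between pairings by a test of the difference (edgeR, adjusted p under 0.05) were looked at again. Protein-coding genes were chosen by the size of the difference, with a mean of at least 10 CPM and no overlap between the pairings, and other genes also passed the test. Against WT Ctrl the higher ones of those chosen were Mpo (7.46), Ltf (3.47), Ngp (3.44), Ffar2 (3.18), Cd177 (2.39), Wfdc21 (2.39) and Padi4 (2.36). Mpo met the mean of 10 CPM through the WT Ctrl Inputs (37.2 CPM), and its difference rests on 6 Input counts in the pairing. The lower ones were Ms4a6c (-1.44), Ifitm1 (-1.29), B3galt2 (-1.25), BC035044 (-1.19), Shmt1 (-1.17), Adra2a (-1.12), Trp53i11 (-1.09) and Gins3 (-1.07).

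Against the low-Lyz2 irradiated pairing the higher ones of those chosen were Car4 (3.67), Saa3 (2.35), Serpinb2 (2.26), Rtp4 (2.23), Asgr2 (2.18), Ifi27l2a (2.16), BC035044 (2.07) and Slfn1 (2.03). Serpinb2, Rtp4 and Ifi27l2a met the mean of 10 CPM through the Inputs labelled Ythdf2 cKO IR, at 30.9, 19.5 and 27.5 CPM. The lower ones were Ahnak2 (-2.42), Nav2 (-2.23), mt-Co1 (-2.18), mt-Nd6 (-2.10), C77080 (-2.01), Lrp1 (-1.97), Ltf (-1.95) and Emp1 (-1.94). BC035044 and Ltf appear in both, with opposite signs. Groups of 3 libraries were too small for a test of single outlying libraries.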

How the results depend on the processing

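Every count of called genes stayed within 1.5 times its value under the alternatives run. Leaving out each library of the pairing gave 5626 to 6040 enriched and 5477 to 5721 depleted genes. The replicate numbers did not pair the libraries (correlations of same-numbered deviations 0.04, 0.03 and -0.03), and with the replicate number as a block 6040 genes were enriched and 5975 depleted. The number of differences from WT Ctrl was 4939, and 7200 with the irradiated WT libraries paired by label, an alternative added after the data were seen. Consensus peaks numbered 2508 with a fold of at least 4 in place of 9056, and marker genes of opposite sign in the IP 10 at 2-fold in place of 2, because both thresholds admit another number of items.

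Genes near 0 changed sign, with the cause not tested beyond the shift in scale. With library totals alone these were Cd79b (0.04), Ikbke (0.13), Klrk1 (0.01), Ltf (0.23), Mettl14 (0.18), Mettl3 (0.00), Serpinb2 (0.20) and Socs3 (0.23). With at least 1 count they were Ltf (0.04), Serpinb2 (0.01) and Socs3 (0.04), with all 24 libraries Ltf (0.01) and Socs3 (0.02), and under the block Socs3 (0.00). Without single libraries, values ran from -0.60 to 0.13 for Cd79b, -0.23 to 0.73 for Dancr, -0.05 to 0.03 for Ltf, -0.15 to 0.07 for Serpinb2 and -0.09 to 0.04 for Socs3. The differences chosen by size (15 from WT Ctrl and 16 from the low-Lyz2 pairing) kept direction and call under all alternatives run, and those of Ythdf2 were not recomputed. Over 224 named genes and their alternatives, 37 of 2849 values lost the call of IP over Input and 14 gained it. RLE scaling moved 13 of 42 list medians by more than the spread between IP libraries.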
